A study of Mus musculus with 4 samples.

Results

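A set of 37 genes that build the red blood cell and its heme was followed through 4 mouse T cell libraries. The set was chosen by gene symbol and holds adult globins, the enzymes of heme synthesis, iron suppliers, erythroid regulators and proteins of the red cell membrane. Of the 37 symbols, 35 had a row in each of the deposited tables, which list 10663 and 23259 named genes. Ahsp, the alpha-globin chaperone, and Sptb, the erythroid beta-spectrin, had no row under these symbols. The older name of Sptb in RefSeq, Spnb1, did have one and is given among the related genes below.

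RNA was sequenced in 2 separate experiments with 1 library per group. In the first, regulatory T cells (Treg) came from the spleen of Balb/c mice with the Foxp3-hCD2 reporter, in which cells that express Foxp3 carry human CD2 and can be sorted by it. The treated mice drank 3% dextran sulfate sodium (DSS), which injures the colon epithelium, for 7 days, and the other group was not treated. In the second, wild-type C57BL6 mice gave naive CD4 T cells, which were transduced with a vector carrying Sox12, a SoxC transcription factor, or with a mock vector. No source used here gives the age of the mice, how many were pooled or the promoter of the vector. Levels are in FPKM, fragments scaled to transcript length and library size, which can be ordered between genes of a library. A difference is that of log2(FPKM + 1), DSS minus untreated or Sox12 vector minus mock vector, and a ratio is of the FPKM themselves. With 1 library per group there is no replicate error and no test, so every difference below describes these libraries.

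Red cell precursors make heme in a chain of enzymes that starts and ends in the mitochondrion, with iron brought in by the transferrin receptor. Erythropoietin signals through its receptor, and the transcription factors GATA1, TAL1 and KLF1 switch on the globins, the erythroid form of the first heme enzyme and the membrane proteins. In mice the spleen is a site of red cell formation, above all when demand rises. Most heme enzymes are also used by other cells, T cells included, while globins and band 3 are best known from red cells.

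The promoters of these genes show what many of them share. The letters are RefSeq sequence of build GRCm38.p6, 250 bases up to the transcription start and read 5′ to 3′ on the gene's strand. Capitals mark the GATA letters AGATAA or TGATAA and the CACC-type letters CCNCNCCC, the kind of box that KLF1 is known to bind, in either orientation. The genes shown are an alpha and a beta globin, the erythroid heme enzyme, an erythroid regulator and the membrane gene with the highest ratio in the DSS experiment, and they were picked after matches and values were known. Each of them holds a GATA match.
Hba-a1, chr11:32283422-32283671, plus strand: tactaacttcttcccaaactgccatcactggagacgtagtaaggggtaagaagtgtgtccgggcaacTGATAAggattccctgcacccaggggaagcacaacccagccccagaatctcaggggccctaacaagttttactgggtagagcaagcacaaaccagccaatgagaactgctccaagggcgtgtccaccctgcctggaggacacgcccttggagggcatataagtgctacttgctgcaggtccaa
Beta-s, chr7:103827929-103828178, minus strand: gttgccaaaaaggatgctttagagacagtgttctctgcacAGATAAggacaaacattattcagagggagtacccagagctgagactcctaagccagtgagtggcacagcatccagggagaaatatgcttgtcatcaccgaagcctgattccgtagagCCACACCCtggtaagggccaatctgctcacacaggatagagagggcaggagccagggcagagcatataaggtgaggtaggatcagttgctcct
Alas2, chrX:150547167-150547416, plus strand: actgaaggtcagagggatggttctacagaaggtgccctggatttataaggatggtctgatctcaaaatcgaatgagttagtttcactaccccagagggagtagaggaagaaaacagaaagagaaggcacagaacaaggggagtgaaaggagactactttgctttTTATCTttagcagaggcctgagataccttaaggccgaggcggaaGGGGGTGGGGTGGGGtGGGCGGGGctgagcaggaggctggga
Klf1, chr8:84901732-84901981, plus strand: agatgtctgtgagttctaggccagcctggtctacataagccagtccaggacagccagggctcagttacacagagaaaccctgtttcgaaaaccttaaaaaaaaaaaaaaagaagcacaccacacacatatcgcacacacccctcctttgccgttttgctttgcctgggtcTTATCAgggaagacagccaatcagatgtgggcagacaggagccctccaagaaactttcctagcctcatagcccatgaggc
Rhag, chr17:40810899-40811148, plus strand: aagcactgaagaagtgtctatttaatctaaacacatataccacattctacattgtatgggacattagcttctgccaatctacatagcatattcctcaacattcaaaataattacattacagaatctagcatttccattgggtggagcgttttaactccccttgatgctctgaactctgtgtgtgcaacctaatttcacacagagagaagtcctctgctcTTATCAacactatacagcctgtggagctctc

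The 35 genes with a row were matched to 30 RefSeq promoters of 25 genes, Beta-s under its present name Hbb-bs. A GATA match stood in 16 of the 30 promoters, 53.3%, against 16.6% of all 32851 promoters of the same length. CACC-type letters stood in 50% of these promoters (15 of 30) and in 45.9% of all, and the NFE2-type letters TGAGTCA stood in 2 of them (6.67%, against 4.46% of all). The full RefSeq windows of Hba-a2 and Hba-a1, which run on past the transcription start, were identical at each of 297 aligned bases once shifted by 3 bases. Of the 429 coding bases of both alpha-globin transcripts 428 were identical (99.8%), so the split of their reads between the rows is uncertain, as it is between the beta-globin rows. Mouse strains also differ in their adult beta-globin haplotype, and Balb/c and C57BL6 mice carry different ones. A match of letters is a description and shows no binding.

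In the Treg libraries red cell genes were present at levels between 1.92 and 388 FPKM, and all 35 were higher in the DSS library, while 0 were lower. Of all 10545 genes past the filter, which asks for an average over both libraries of 1 FPKM or more, 66.1% were higher in DSS Treg and 33.9% were lower, and with the median difference of all genes set to 0, 33 of the 35 and 50% of all genes were. The median ratio of DSS Treg to untreated Treg was 1.48 for the 35 genes and 1.04 for all genes past the filter. The ratios of the 35 genes had 1.35 and 1.58 as quartiles, and 24 of 35 lay between 1.3 and 1.8, where 4.96% of all genes lay. These limits lie around the median of the set, so the shares show a higher centre and not a closer spread. All but the lowest and highest 5% of genes past the filter lay between 0.847 and 1.32. All 35 exceeded 1 FPKM in both libraries, so none was listed through the DSS library alone. Markers of the labelled cell type were high: Cd3e, a chain of the T cell receptor complex, had 473 FPKM in DSS Treg and 468 FPKM in untreated Treg. Its partner Cd3g had 443 FPKM in DSS Treg and 428 FPKM in untreated Treg, and Foxp3 had 84.9 and 88.2 FPKM in the same order. In bulk RNA a larger number of cells of a type and more RNA per cell cannot be told apart. From which cells these transcripts came was not tested.

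Hbb-b2, with a difference of 1.44, was the 1 gene of the 35 past the limit of 2 times higher, against 0.19% of all genes, and 0 were at least 2 times lower, against 0.0759% of all genes. The row shares reads with the other beta-globin rows, and with globins summed or with a pseudocount of 5 (Hbb-b2 at 0.83) 0 entries passed the limit, while with a pseudocount of 0.1 Tspo2 passed it as well. The nearest under that limit were Rhag at 0.91 and Tspo2 at 0.82. A ratio of at least 1.5, a limit chosen after the values were seen, was met by 16 of the 35, against 1.95% of all genes, and the inverse limit by 0, against 0.891% of all genes. With the median of all genes set to 0 the number was 9. Car2 at 1.504 was the lowest inside this limit and Beta-s at 1.49 the highest outside.

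**Figure D1:**
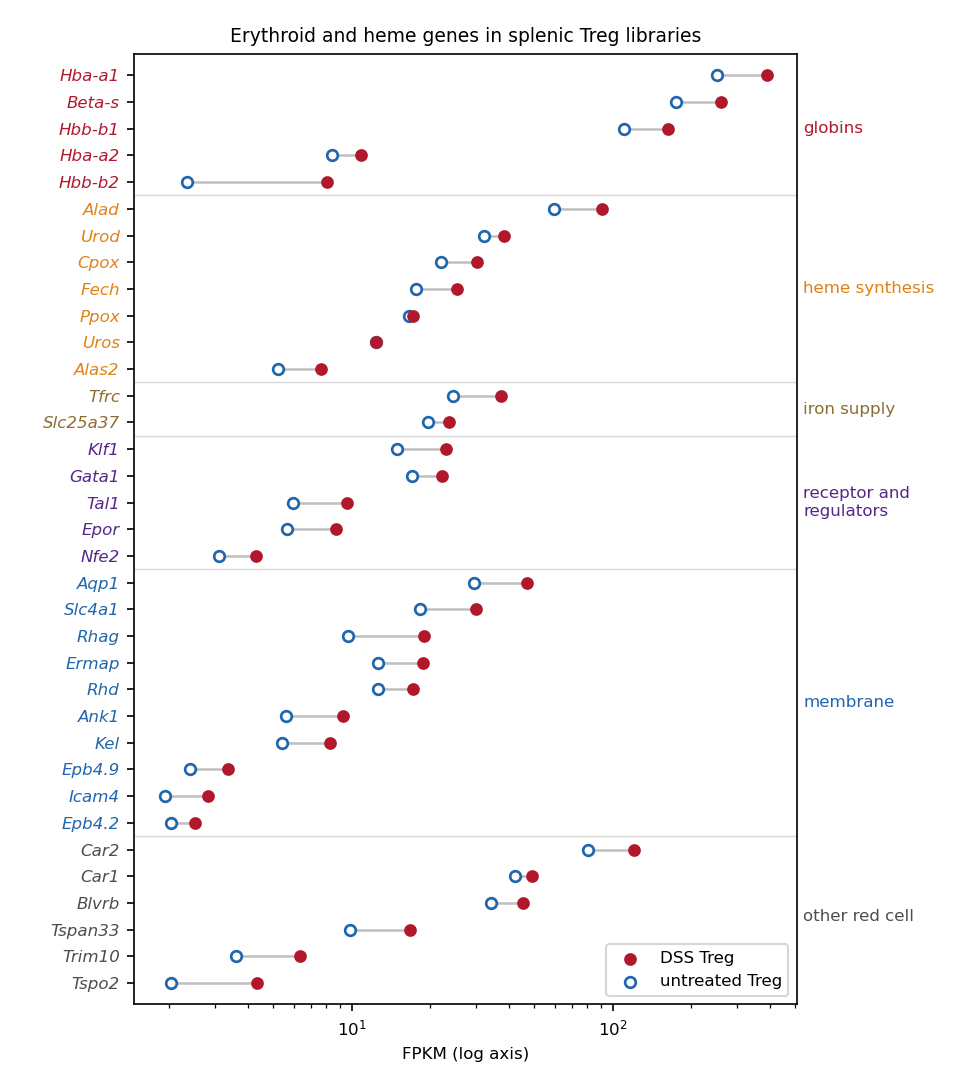
FPKM of the 35 genes in the DSS Treg library (filled) and the untreated Treg library (open) on a log axis, 1 library each, grouped by role. The filled point lies to the right of the open one for each gene, with Uros almost on top of it (12.4 FPKM in both), and Hba-a1 is the highest at 388 and 249.6 FPKM.

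The globins, the oxygen carriers, were the most abundant. Hba-a1 had 388 FPKM in DSS Treg and 249.6 FPKM in untreated Treg, a ratio of 1.56, and ranked 88 in the DSS library and 153 in the untreated one. Beta-s had 261 FPKM in DSS Treg and 175 FPKM in untreated Treg, and Hbb-b1 had 163 FPKM in DSS Treg and 110.1 FPKM in untreated Treg, with ratios of 1.49 and 1.48. The ratios of these 3 rows thus lay close together, and those of the low rows lay apart. Hba-a2 had 10.9 FPKM in DSS Treg and 8.44 FPKM in untreated Treg (ratio 1.29), and Hbb-b2 had 8.05 FPKM in DSS Treg and 2.34 FPKM in untreated Treg (ratio 3.44). Because the rows share reads, their sums are given as well. The alpha rows summed to 399 FPKM in DSS Treg and 258 FPKM in untreated Treg (ratio 1.55), and the beta rows to 432 and 288 FPKM in the same order (ratio 1.4999). The alpha to beta ratio was 0.925 in DSS Treg and 0.897 in untreated Treg. All globin rows made up 0.252% of the summed FPKM of the DSS library and 0.167% of that of the untreated library.

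The heme enzymes had unlike ratios, from 1.00 to 1.53. Alad, which joins aminolevulinate into porphobilinogen, was the most abundant, with 90.999 FPKM in DSS Treg and 59.4 FPKM in untreated Treg (ratio 1.53). Alas2, the erythroid form of the first enzyme, had 7.64 FPKM in DSS Treg and 5.21 FPKM in untreated Treg (ratio 1.47). Fech, which inserts the iron, had 25.3 FPKM in DSS Treg and 17.7 FPKM in untreated Treg (ratio 1.43). Cpox, a late oxidase of the chain, followed at a ratio of 1.37, with 30.1 FPKM in DSS Treg and 22.0 FPKM in untreated Treg. The other enzymes were nearer to the median of all genes. Urod, a decarboxylase, had 38.4 FPKM in DSS Treg and 32.002 FPKM in untreated Treg (ratio 1.199). Ppox, the oxidase before ferrochelatase, had 17.2 FPKM in DSS Treg and 16.6 FPKM in untreated Treg (ratio 1.03). Uros, which closes the ring, had 12.45 and 12.39 FPKM in the same order (ratio 1.00). With the median of all genes set to 0, Ppox and Uros lay at -0.004 and -0.04, below untreated Treg, and Uros also did so with equal 75th percentiles and with equal totals.

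Both iron suppliers were higher in the DSS library. Tfrc, the transferrin receptor, had 37.4 FPKM in DSS Treg and 24.4 FPKM in untreated Treg (ratio 1.53). Slc25a37, the mitochondrial iron importer mitoferrin, had 23.6 FPKM in DSS Treg and 19.6 FPKM in untreated Treg (ratio 1.21). Dividing T cells also use the transferrin receptor, so of these genes it is among the least specific to red cells.

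Erythroid regulators had a median ratio of 1.54, beside 1.49 for the globin rows. Klf1, an activator of the adult beta globin, had 23.0 FPKM in DSS Treg and 14.9 FPKM in untreated Treg (ratio 1.54). Epor, the erythropoietin receptor, had 8.70 FPKM in DSS Treg and 5.64 FPKM in untreated Treg (ratio 1.54), and Tal1 had 9.59 and 5.99 FPKM in the same order (ratio 1.60). Gata1, which megakaryocytes, mast cells and basophils use as well, was less different, with 22.2 FPKM in DSS Treg and 17.1 FPKM in untreated Treg (ratio 1.2995). Nfe2, a globin regulator that megakaryocytes share, had 4.29 FPKM in DSS Treg and 3.12 FPKM in untreated Treg (ratio 1.38). Klf1 and Gata1 thus stood above 10 FPKM in both libraries.

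The 10 membrane genes had ratios between 1.24 and 1.97. Rhag, the Rh-associated glycoprotein, had 19.0 FPKM in DSS Treg and 9.67 FPKM in untreated Treg, the highest ratio of the group at 1.97. Slc4a1, the anion exchanger band 3, had 29.8 FPKM in DSS Treg and 18.3 FPKM in untreated Treg (ratio 1.63), and Ank1, the ankyrin that ties band 3 to spectrin, had 9.25 and 5.60 FPKM in the same order (ratio 1.65). Aqp1, the red cell water channel that other cells also use, had 46.9 FPKM in DSS Treg and 29.3 FPKM in untreated Treg (ratio 1.60). The blood group gene Kel had 8.24 FPKM in DSS Treg and 5.44 FPKM in untreated Treg (ratio 1.51). The other 5 ranged from 1.24 to 1.48. They were Ermap, a red cell adhesion protein, at 18.7 FPKM in DSS Treg and 12.7 FPKM in untreated Treg, and the Rh antigen gene Rhd at 17.2 and 12.6 FPKM in the same order. The low members were Epb4.9 (dematin, 3.36 FPKM in DSS Treg and 2.40 FPKM in untreated Treg), Icam4 (an adhesion molecule, 2.81 and 1.92 FPKM in that order) and Epb4.2 (protein 4.2, 2.52 and 2.03 FPKM in that order).

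Among the remaining red cell genes the 2 carbonic anhydrases, which hydrate carbon dioxide, differed from each other. Car2 had 121 FPKM in DSS Treg and 80.4 FPKM in untreated Treg (ratio 1.504), whereas Car1 had 48.9 FPKM in DSS Treg and 42.4 FPKM in untreated Treg (ratio 1.15). Tspo2, a translocator protein of erythroid cells, had 4.36 FPKM in DSS Treg and 2.03 FPKM in untreated Treg (ratio 2.14). Trim10, which is known from terminal red cell differentiation, had 6.35 FPKM in DSS Treg and 3.61 FPKM in untreated Treg (ratio 1.76). The tetraspanin gene Tspan33 had 16.7 FPKM in DSS Treg and 9.88 FPKM in untreated Treg (ratio 1.69). Blvrb, a biliverdin reductase abundant in red cells, had 45.5 FPKM in DSS Treg and 34.2 FPKM in untreated Treg (ratio 1.33).

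**Figure D2:**
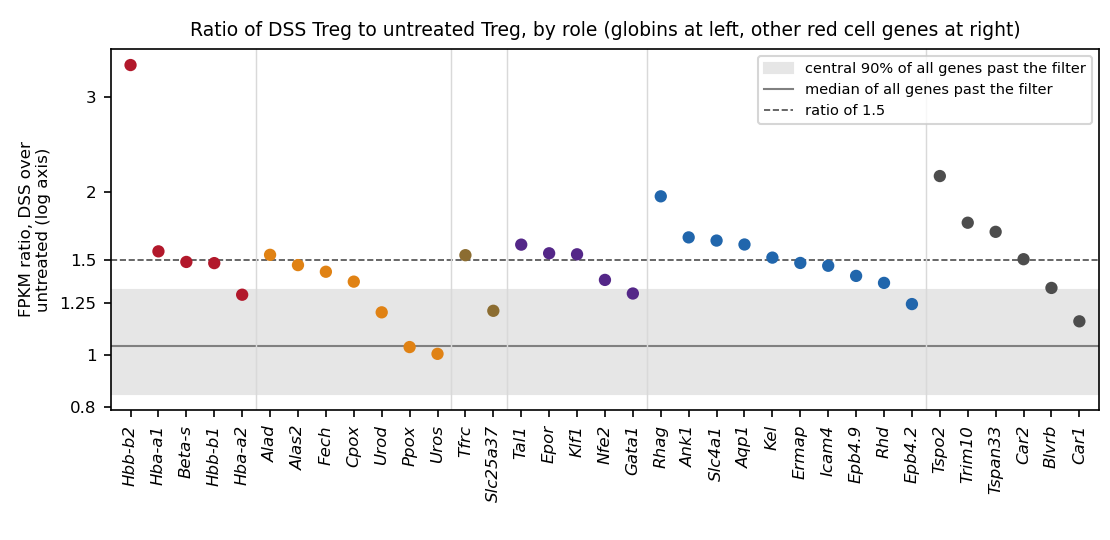
FPKM ratio of DSS Treg to untreated Treg for each of the 35 genes (log axis), grouped by role and ordered within each group, with the band that holds all but the lowest and highest 5% of genes past the filter (0.847 to 1.32) in grey and their median of 1.04 as a line. Most points lie above the grey band, Hbb-b2 is highest at 3.44, and Ppox and Uros lie at the median of all genes.

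Related genes outside the set were read for comparison, from lists chosen with earlier results of these data known. Their counts stand beside the 66.1% of all genes that were higher in DSS Treg. Of 28 further red cell genes with a row 27 were higher in DSS Treg and 1, Myb, was lower. Tmod1, Tmcc2 and Sox6 were under 1 FPKM in untreated Treg and listed through the DSS library alone, so their direction was fixed in advance. Of the 25 past the filter 24 were higher and 1 lower, with a median ratio of 1.40. Spnb1 had 7.98 FPKM in DSS Treg and 5.54 FPKM in untreated Treg (ratio 1.44). The most abundant of that list, Ldb1, a cofactor of GATA1 and TAL1 in many cells, had 171 FPKM in DSS Treg and 163 FPKM in untreated Treg (ratio 1.05), and Add1, an adducin, had 106 and 102 FPKM in that order (ratio 1.04). The remaining heme synthesis genes were all higher (8 of 8) but by less, with a median ratio of 1.15, and Tmem14c, a mitochondrial porphyrin carrier, had 81.3 FPKM in DSS Treg and 66.3 FPKM in untreated Treg. For iron handling genes the median ratio was 1.16, 14 of 15 being higher, and the ferritin chains Fth1 (560 FPKM in DSS Treg and 490 FPKM in untreated Treg) and Ftl1 (256 and 246 FPKM in that order) led the list. Heme breakdown genes were split, 2 higher and 2 lower past the filter, with Hmox2 at 31.4 FPKM in DSS Treg and 31.9 FPKM in untreated Treg and Blvra at 15.0 and 15.9 FPKM in that order. Embryonic globins had no row.

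Markers of other blood cells differed between the libraries too. All 8 basophil and mast cell genes were higher and summed to 33.5 FPKM in DSS Treg and 9.48 FPKM in untreated Treg, a ratio of 3.53. Of these, Fcer1a, Ms4a2, Hdc, Gata2 and Cd200r3 were under 1 FPKM in untreated Treg. They were listed through the DSS library alone, so their direction was fixed in advance, and the sums include them. Mcpt8, Prss34 and Cpa3 exceeded 1 FPKM in both libraries. Of the 6 of these 8 genes past the filter, 4 had a difference of at least 1, against 0.19% of all genes. Hdc, Gata2 and Cd200r3 are among these 6 and could only be higher, so the count is not a fair match to that share. The 4 genes were Mcpt8 (12.6 FPKM in DSS Treg and 2.56 FPKM in untreated Treg), Prss34 (8.35 and 2.44 FPKM in that order), Cpa3 (5.16 and 1.79 FPKM) and Hdc (2.11 and 0.451 FPKM). All 5 myeloid precursor genes were higher and summed to 35.3 FPKM in DSS Treg and 20.5 FPKM in untreated Treg, with Ctsg, a granule protease, at 5.72 and 1.82 FPKM in that order. Among them Ms4a3 was under 1 FPKM in untreated Treg and listed through the DSS library alone. Its direction was thus fixed in advance, and the sums include it. Mpo, Prtn3, Elane and Ctsg exceeded 1 FPKM in both libraries. Of 11 megakaryocyte genes 2 had a row, Itgb3 at 14.9 FPKM in DSS Treg and 14.5 FPKM in untreated Treg and Itga2b at 1.40 and 0.878 FPKM in that order, while Pf4, Ppbp and Gp9 had none. Itga2b too was listed through the DSS library alone. Red pulp macrophages, which clear old red cells, were represented by 3 of 12 genes that summed to 7.19 FPKM in DSS Treg and 6.17 FPKM in untreated Treg, C1qb among them at 2.64 and 2.80 FPKM and the iron exporter Slc40a1 at 2.80 and 1.99 FPKM, both in that order. Of 6 B cell genes only Cd79b (5.23 FPKM in DSS Treg and 5.48 FPKM in untreated Treg) and Cd79a (3.92 and 3.19 FPKM in that order) had a row. T cell and Treg genes summed to 2065 FPKM in DSS Treg and 2116 FPKM in untreated Treg, with 3 higher and 6 lower. Of 10 T cell growth genes 7 were higher, near the 66.1% of all genes, at a median ratio of 1.11, with Pcna at 145 FPKM in DSS Treg and 132 FPKM in untreated Treg and Cd69 at 62.3 and 63.3 FPKM in that order. The part of these cells in the ratios of the red cell genes was not tested. Sox12, also part of the study, had 1.52 FPKM in DSS Treg and 0.715 FPKM in untreated Treg. It too was listed through the DSS library alone, so its direction was fixed in advance.

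**Figure D3:**
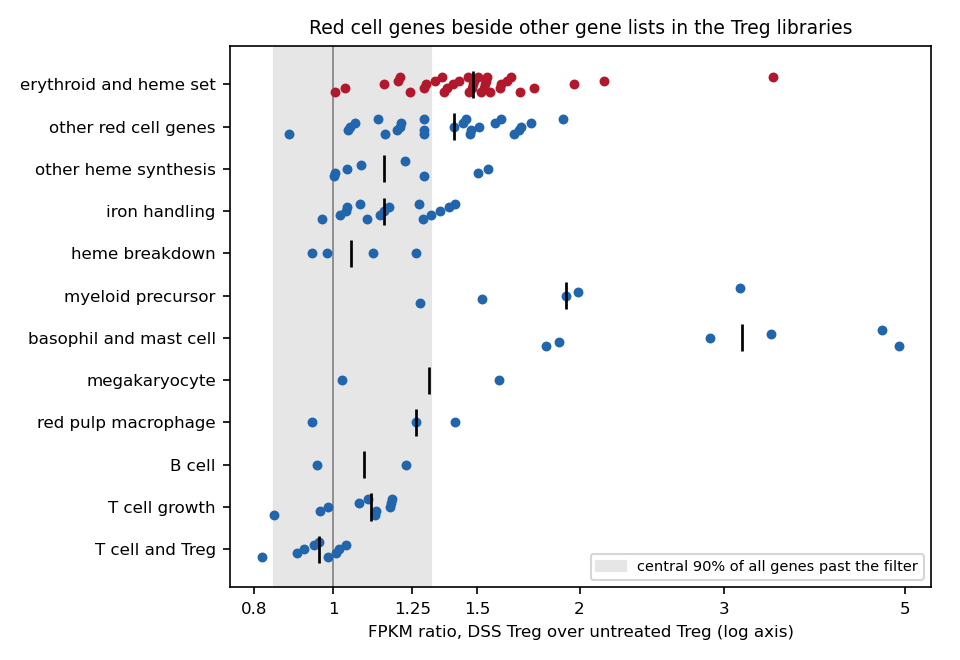
FPKM ratio of DSS Treg to untreated Treg (log axis) for the 35 genes (red) and for the genes past the filter in 11 other lists (blue), 1 point per gene, with list medians as black lines and the same band of all genes (0.847 to 1.32) in grey. The set and the other red cell genes centre at 1.48 and 1.40, the basophil list at 3.16 and the T cell list at 0.963. Hdc, Gata2, Cd200r3, Ms4a3 and Itga2b were listed through the DSS library alone.

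In the transduced CD4 T cells most of the set was low. Of the 35 genes 20 were below 1 FPKM with both vectors, and 14 were above 1 FPKM with both. Past the filter were 14 of the 35 genes and 10822 of all 23259 genes, so low levels were common among all genes as well. Slc4a1, Rhag, Epb4.2, Car1 and Tspo2 were listed at 0 in both libraries, although Car1 had 48.9 FPKM in DSS Treg and 42.4 FPKM in untreated Treg in the other table. Values of 0 were common among all 23259 genes. They began at rank 15907 with the Sox12 vector and at rank 15560 with the mock vector. Klf1 had 0.0466 FPKM with the Sox12 vector and 0.130 FPKM with the mock vector. Alas2 had 0.191 FPKM with the Sox12 vector and 0.163 FPKM with the mock vector, which rests on about 18 and 14 fragments. Alas1, the form of the first enzyme that other cells use, had 19.3 FPKM with the Sox12 vector and 21.6 FPKM with the mock vector. The 6 other heme enzymes were all above 4 FPKM. The tables were normalized separately, and strain and cells differ, so levels across them are set side by side only.

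The genes were also ordered by their level in the transduced cells. The 21 genes with a mean under 1 FPKM in the vector libraries had a median DSS ratio of 1.54, and the 14 others 1.40. Of these 14, 5 were under 1.3 (Uros, Ppox, Urod, Slc25a37 and Gata1), and of the 21, 3 were (Car1, Epb4.2 and Hba-a2). Among all genes past the filter only the highest 5% exceeded 1.32, so a ratio under about 1.3 was usual. Spearman's rho between the mean vector level and the DSS ratio was -0.37 over the 35 genes and -0.44 over the 30 genes without globins, and Pearson's r on log2 scales was -0.29 and -0.36. The points share their 4 libraries and the globins share reads, so this is a description across genes. Neither this relation nor the medians by vector level were computed over all genes, so they are not shown to be particular to the set. The 16 genes with GATA letters in their promoter had a median DSS ratio of 1.48, and the 9 without had 1.53.

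**Figure D4:**
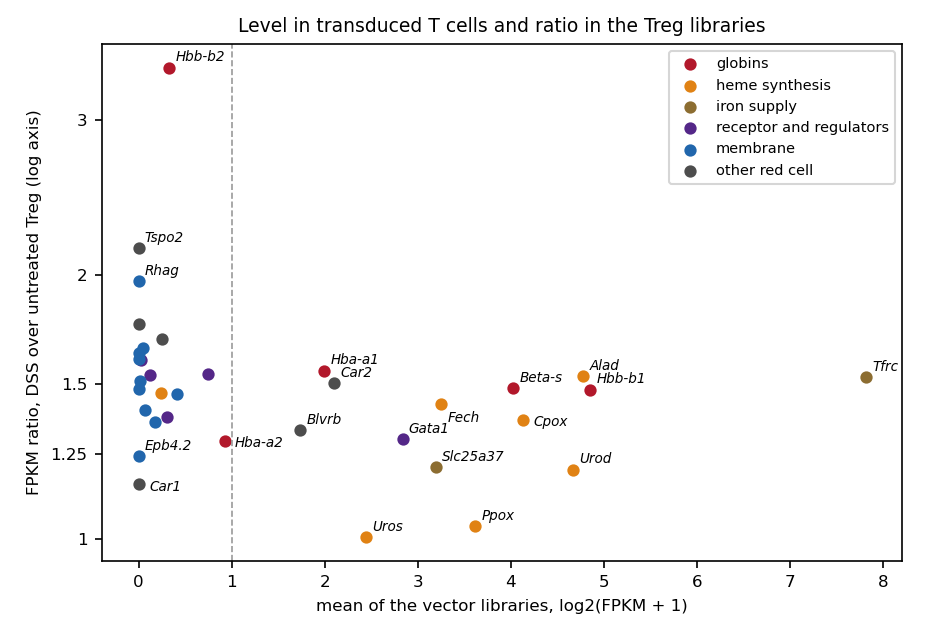
Mean level of each of the 35 genes in the 2 vector libraries, as log2(FPKM + 1), against its FPKM ratio of DSS Treg to untreated Treg (log axis), coloured by role, with a dashed line at 1 FPKM. The ubiquitous enzymes Uros and Ppox lie lowest at the right of the line, and Tspo2, Rhag and Hbb-b2 lie highest at its left.

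Between the vectors the set differed in another way. Past the same filter were 14 of the 35 genes, of which 11 were lower and 3 higher with the Sox12 vector, and with equal 75th percentiles 12 were lower. Of all 10822 genes past it 51.1% were lower and 48.9% were higher. The median difference was -0.38 for these genes and -0.01 for all. At least 2 times lower were 3 of the 14 genes (1.91% of all genes) and at least 2 times higher was 1 (4.85% of all genes). A ratio of at least 1.5 was met by 2 of the 14 (12.1% of all genes) and its inverse by 4 (9.09% of all genes). Since these 14 genes passed through their level in these libraries, the counts say nothing of the other 21.

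Beta-globin rows were the most different. Hbb-b1 had 9.27 FPKM with the Sox12 vector and 46.6 FPKM with the mock vector (difference -2.21), and Beta-s had 5.05 FPKM with the Sox12 vector and 25.5 FPKM with the mock vector (difference -2.13). They had a nearly equal ratio (0.199 and 0.198). Beta-s rested on about 143 fragments with the Sox12 vector and 682 with the mock vector, a counting error of 8.35% and 3.83%. Alpha-globin rows went the other way, with Hba-a1 at 4.23 FPKM with the Sox12 vector and 1.74 FPKM with the mock vector, a difference of 0.93 that was just under the limit. Hba-a2, which did not pass the filter, had 1.79 FPKM with the Sox12 vector and 2.17e-04 FPKM with the mock vector (difference 1.48), and Hbb-b2 0.00163 and 0.507 FPKM in that order. Summed, the alpha rows had 6.03 FPKM with the Sox12 vector and 1.74 FPKM with the mock vector, and the beta rows 14.3 and 72.6 FPKM in that order. The alpha to beta ratio was 0.421 with the Sox12 vector and 0.0239 with the mock vector; in the Treg libraries it was 0.925 with DSS and 0.897 untreated.

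Of the 14 genes past the filter, Gata1 was the 1 at least 2 times higher with the Sox12 vector, and with a pseudocount of 5 it was under that limit (difference 0.70). It had 8.80 FPKM with the Sox12 vector and 3.49 FPKM with the mock vector, a difference of 1.13, on about 756 and 282 fragments. The other 4 regulators of the set were below 1 FPKM with both vectors, with Tal1 at 0.0261 FPKM with the Sox12 vector and 0.00547 FPKM with the mock vector, Nfe2 at 0.226 and 0.251 FPKM in that order and Epor at 0.432 and 0.919 FPKM in that order.

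Blvrb had 1.22 FPKM with the Sox12 vector and 3.44 FPKM with the mock vector, a difference of -1.001 that was just past the limit, and it was under the limit when the median of all genes was set to 0 or totals were made equal. Among the heme enzymes Fech had 6.12 FPKM with the Sox12 vector and 10.9 FPKM with the mock vector (difference -0.75). Alad had 22.3 FPKM with the Sox12 vector and 30.6 FPKM with the mock vector (difference -0.44), and Cpox 14.6 and 18.5 FPKM in that order (difference -0.32). Smaller differences were those of Urod at 23.1 FPKM with the Sox12 vector and 25.6 FPKM with the mock vector, of Uros at 4.33 and 4.54 FPKM in that order and of Ppox at 11.33 and 11.26 FPKM in that order. Ppox was the 1 enzyme past the filter that was not lower, and with equal 75th percentiles it was lower as well. Tfrc, the most abundant gene of the set in these cells, had 189 FPKM with the Sox12 vector and 260 FPKM with the mock vector (difference -0.46), and Slc25a37 had 6.79 and 9.49 FPKM in that order (difference -0.43). Car2 had 2.94 FPKM with the Sox12 vector and 3.65 FPKM with the mock vector.

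**Figure D5:**
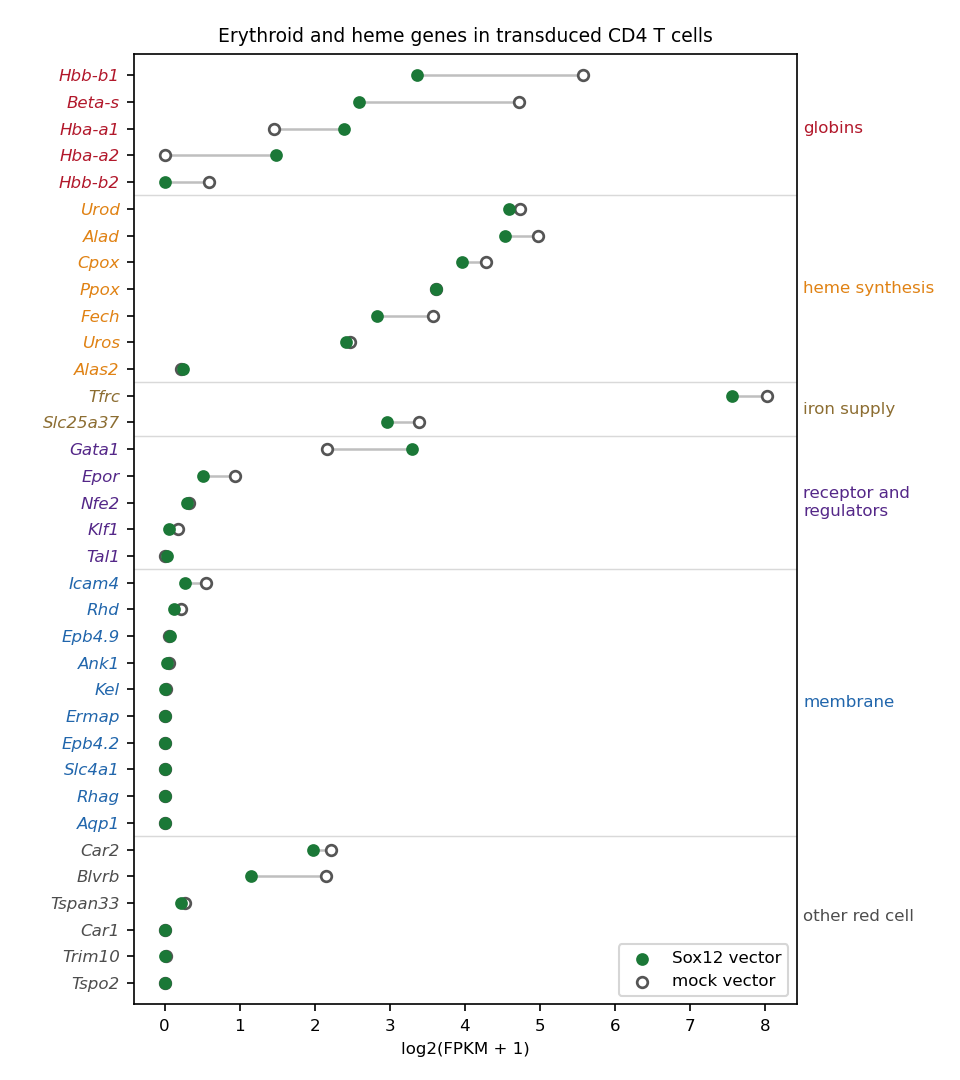
Level of the 35 genes as log2(FPKM + 1) in CD4 T cells with the Sox12 vector (filled) and the mock vector (open), 1 library each, grouped by role. Hbb-b1 and Beta-s lie lower with the Sox12 vector, Hba-a1, Hba-a2 and Gata1 higher, and the membrane genes lie near 0 with both.

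Of the related genes in the transduced cells, the further heme synthesis genes were 3 higher and 5 lower with a median difference of -0.06, with Tmem14c at 63.9 FPKM with the Sox12 vector and 64.9 FPKM with the mock vector. The ferritin light chain Ftl1 had 514 FPKM with the Sox12 vector and 285 FPKM with the mock vector, and the heavy chain Fth1 373 and 385 FPKM in that order. Bach1, a repressor that heme is known to inactivate, had 5.77 FPKM with the Sox12 vector and 1.48 FPKM with the mock vector (difference 1.45). Of further red cell genes past the filter 11 were higher and 6 lower with the Sox12 vector, and 48.9% of all genes were higher. Their median difference was 0.49, unlike the set, where 3 were higher and 11 lower. Among them Kit, the stem cell factor receptor of blood precursors and mast cells, had 11.6 FPKM with the Sox12 vector and 0.890 FPKM with the mock vector. Kit passed the filter through the Sox12 library alone, so its place among the higher genes was fixed in advance. Hemgn, a nuclear protein of blood cells, had 8.003 FPKM with the Sox12 vector and 3.18 FPKM with the mock vector. Lyl1, a relative of Tal1, was lower, with 1.62 FPKM with the Sox12 vector and 5.79 FPKM with the mock vector. No marker of myeloid precursors (0 of 5) or basophils (0 of 8) passed the filter, which 10822 of all 23259 genes passed. The basophil markers summed to 0.866 FPKM with the Sox12 vector and 1.246 FPKM with the mock vector. B cell genes summed to 2.90 FPKM with the Sox12 vector and 2.20 FPKM with the mock vector. The integrin Itgb3, which platelets share with other cells, had 24.2 FPKM with the Sox12 vector and 9.42 FPKM with the mock vector. Hmox1, in the macrophage list but not specific to that cell, had 8.31 FPKM with the Sox12 vector and 7.15 FPKM with the mock vector. As checks of the cells, Sox12 had 829 FPKM with the Sox12 vector and 1.56 FPKM with the mock vector, Foxp3 127 and 20.9 FPKM, Cd5 81.7 and 189 FPKM and Il2 8.40 and 35.1 FPKM, each in that order. A value per gene does not separate Sox12 transcripts of the vector from the cell's own.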

How the data were processed

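Libraries were made from total RNA with a strand-specific kit, per the labels' protocols. Cufflinks and build mm9 are named in the submitters' processing notes; aligner, annotation and strand setting: not given in the sources used here. The Treg table holds FPKM and a fold ratio, deposited by the authors, and lists genes above 1 FPKM in at least 1 library. The vector table holds log2(FPKM + 1) values and log2 differences, deposited by the authors, which were turned back to FPKM. Rows with a symbol turned into a date or number (16 and 25) were left out. Differences used a pseudocount of 1, the filter asked for an average of 1 FPKM or more, and at least 2 times means a difference of at least 1 in size.

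The genes and lists were chosen with earlier results of these data known. Named genes are all members of the set and, of each other list, up to 4 past the limit or else the 2 with the highest mean; Foxp3 and Sox12 are always named, and some genes are not reported here. Pf4, Ppbp and Gp9 are named as markers, and Spnb1, Myb and Alas1 were added after their values were seen. Some genes listed through the DSS library alone are named for that reason.

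Depth is unknown for the Treg libraries. In the vector table the steps of low values gave about 45.2 (Sox12 vector) and 42.5 (mock vector) fragments per kb and FPKM, from 26 and 20 genes at the most frequent value. Fragments behind a gene were taken from this and the longest coding transcript of GENCODE vM21, so they are approximate, and they cover counting error only. Promoters and motif letters are from RefSeq, GRCm38.p6; no coordinates of the authors' build were used. The counting steps were tested on simulated data. Python 3.11.15, pandas 2.3.3, NumPy 2.4.6 and SciPy 1.17.1 were used.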

Additional observations from a re-analysis of the deposited data

How the results depend on the processing

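No paired analysis was possible because each group has 1 library, and for the same reason no replicate could be left out. In the Treg libraries all members past the filter were higher with other pseudocounts, other filters and summed globins, and 33, 34 and 34 of 35 were with the median difference set to 0, equal 75th percentiles and equal totals without the 20 highest genes. The genes that changed sign were Uros and, with the median set to 0, Ppox, and in the vector libraries Ppox with equal 75th percentiles. The median difference of 0.53 was 0.56 with a pseudocount of 0.1, 0.40 with a pseudocount of 5, 0.55 with an average of 5 FPKM or more, and 0.48, 0.50 and 0.51 under the 3 scalings. The count at least 2 times higher, 1, was 2 with a pseudocount of 0.1, 0 with a pseudocount of 5 and 0 with globins summed, and the 16 genes with a ratio of at least 1.5 were 9 with the median set to 0. In the vector libraries the median of -0.38 was -0.40 and -0.28 with pseudocounts of 0.1 and 5, -0.03 without a filter, when genes near 0 enter, and -0.43 for averages of 5 FPKM or more. It was -0.37, -0.41 and -0.32 under the 3 scalings and -0.32 with globins summed. Genes at least 2 times higher were 2 with a pseudocount of 0.1, without a filter and with globins summed, and 0 with a pseudocount of 5, and without a filter 8 genes were higher in place of 3 and 22 lower in place of 11. The causes were not tested where the construction of the alternative does not show them. Depth limits the vector values of genes with few fragments.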

Other observations

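Of 66 genes that averaged 5 FPKM or more and had a ratio of DSS Treg to untreated Treg of at least 1.5, 14 (21.2%) belong to the set and 7 (10.6%) to the further lists of red cell, heme and iron genes, while 29 of all 8058 genes at that level belong to the set. Of the 206 genes with such a ratio that averaged 1 FPKM or more, 16 (7.77%) belong to the set and 10 (4.85%) to those lists. At that level 35 of all 10545 genes belong to the set, and 25, 8 and 15 to the further lists of red cell, heme and iron genes. Among genes outside all lists that averaged 5 FPKM or more, the highest ratios were those of Gm9846 (7.00), BC002163 (6.21) and Mt2 (3.57). Some other genes with such a ratio were picked after their values were seen, most of them for being known from red cells or heme. They are a selection and do not describe the remaining genes. Cldn13, a claudin of mouse erythroblasts, had 18.7 FPKM in DSS Treg and 10.3 FPKM in untreated Treg. Hebp1, which encodes a heme-binding protein, had 10.3 FPKM in DSS Treg and 6.71 FPKM in untreated Treg. Cd24a, a surface protein of red cell precursors and of B cells, had 111 FPKM in DSS Treg and 70.1 FPKM in untreated Treg. Atp1b2, a beta subunit of the sodium pump, had 11.4 FPKM in DSS Treg and 5.82 FPKM in untreated Treg.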
